A study of Homo sapiens with 4 samples.

Results

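CD38, its paralog BST1 and 8 enzymes of NAD metabolism were followed in myeloid leukemia cells cultured with or without periplocin. These 10 genes (CD38, BST1, NAMPT, NAPRT, NMNAT1, NMNAT3, NADK, NADK2, QPRT and SIRT1) are listed by symbol. Each was found once by its Ensembl identifier, so that 10 of the 20348 genes in the deposited table are described. They were chosen by symbol with the ratios of periplocin to DMSO CPM in these same libraries known. All ratios between periplocin and DMSO are therefore given as a description, with no test.

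RNA came from K562, a line from chronic myeloid leukemia in blast crisis, and from THP-1, a line from acute monocytic leukemia. Each line was cultured for 72 h with DMSO, the solvent, or with 100 nM periplocin, a cardiac glycoside from the bark of Periploca sepium. No gene was deleted or overexpressed in these cells. The labels name the DMSO cultures blank controls. There was 1 culture per condition and so 4 libraries in all.

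The 4 libraries held between 16381149 and 20622694 counts. Mitochondrially encoded genes took 5.62% of the K562 DMSO counts and 5.24% of the THP-1 DMSO counts, against 2.07% and 3.92% with periplocin. A list of 8 erythroid markers summed to 2032 CPM (counts per 1000000 counts of the library) in K562 DMSO, and to 10.7 CPM in THP-1 DMSO. A list of 8 monocytic markers summed to 87.6 CPM and 1087 CPM in the same libraries. Each line thus carried the markers of its label. With periplocin the erythroid sum in K562 was 8718 CPM and the monocytic sum in THP-1 was 1562 CPM, both above the DMSO library. The monocytic markers did not move together in THP-1. LYZ, CSF1R and MPO were lower with periplocin, with log2 ratios of -0.31, -0.21 and -1.40, and the rest of that list was higher. A list of 8 lymphoid and plasma cell markers summed to 11.1 and 16.4 CPM in K562 DMSO and periplocin, and to 154 and 139 CPM in THP-1, where NCAM1 made up most of it. CD3E, CD3D and MS4A1 were at 0 in both THP-1 libraries, and MS4A1 and JCHAIN were at 0 in K562 DMSO. The part of these marker levels and mitochondrial shares in the values below was not tested.

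NAD is both a redox carrier and a substrate that several enzyme families split, which releases nicotinamide. Cells rebuild it from nicotinamide through NAMPT, from nicotinic acid through NAPRT, or from tryptophan by a longer route in which QPRT makes the nicotinic acid mononucleotide. NMNAT enzymes then attach the adenylyl group, and NAD kinases make NADP. CD38 and BST1 sit at the cell surface and split NAD, yielding ADP-ribose and the calcium-mobilizing messenger cyclic ADP-ribose. CD38 is present on many blood cells and on immature myeloid and plasma cells. SIRT1, a deacetylase, uses up NAD in the nucleus.

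The promoter sequences of CD38, NADK2 and QPRT are printed because CD38 and NADK2 had the lowest THP-1 periplocin ratios of the 10 genes, and QPRT had the highest in both lines. The windows were taken from RefSeq on GRCh38.p14 and run, on the strand of the gene, from 250 to 54 bases before the RefSeq start. The window of CD38 is chr4:15778078-15778274 on the plus strand, that of NADK2 is chr5:36242333-36242529 on the minus strand, and that of QPRT is chr16:29678758-29678954 on the plus strand. Capitals mark the letters CCAAT, the core of a CCAAT box, read on either strand.
CD38: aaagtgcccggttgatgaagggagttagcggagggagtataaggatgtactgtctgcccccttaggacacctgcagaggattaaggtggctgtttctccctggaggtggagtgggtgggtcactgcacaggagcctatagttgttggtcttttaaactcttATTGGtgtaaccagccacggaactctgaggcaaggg
NADK2: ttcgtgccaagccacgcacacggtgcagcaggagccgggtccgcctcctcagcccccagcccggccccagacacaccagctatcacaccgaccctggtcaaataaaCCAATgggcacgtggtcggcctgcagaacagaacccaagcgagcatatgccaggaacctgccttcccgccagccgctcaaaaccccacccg
QPRT: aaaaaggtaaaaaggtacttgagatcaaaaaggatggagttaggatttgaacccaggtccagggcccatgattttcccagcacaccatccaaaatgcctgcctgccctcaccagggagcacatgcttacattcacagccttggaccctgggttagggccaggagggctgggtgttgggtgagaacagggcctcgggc

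The 3 windows differ in composition. That of NADK2 is 64.5% GC with 13 CpG dinucleotides, that of CD38 is 52.3% GC with 3, and that of QPRT is 53.8% GC with 1. The median of all 35116 RefSeq windows of the same 197 bases is 57.4% GC and 7 CpG. The letters CCAAT occur once in the CD38 window and once in that of NADK2 and are not in that of QPRT, against 26.9% of all windows. TATAAA, searched on both strands, is in 7.56% of all windows, and GGGCGG, the GC box, is in 34.3%. Neither is in any of the 3 windows, so no match overlaps another.

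CD38 (ENSG00000004468), the main NAD glycohydrolase of the cell surface, occupies 15778275 to 15853230 on the plus strand of chromosome 4 in GRCh38, the build of all gene positions given here. Its longest coding transcript has 8 exons and encodes 300 amino acids. CD38 had 4 and 6 counts in the DMSO and periplocin libraries of K562, and 1816 and 252 counts in those of THP-1. Both K562 libraries were near the floor of detection of 3 counts, and the THP-1 DMSO library stood far above the other 3. In CPM the levels were 0.244, 0.362, 88.1 and 14.2 in the same order. The THP-1 periplocin library was 6.19-fold lower than THP-1 DMSO, with a 95% counting interval of 5.43-fold to 7.09-fold (log2 ratio -2.63, interval -2.83 to -2.44). All such intervals cover counting error only and compare these libraries, not the conditions, since no replicate check exists. Of the 13367 THP-1 genes with at least 10 counts in a library of the pair, CD38 ranked 139th from the lowest ratio. In bulk RNA, fewer cells carrying a transcript and less of it per cell cannot be told apart.

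BST1 (ENSG00000109743), also called CD157, is a GPI-anchored relative of CD38 and lies 39962 bp before it on the same strand, from 15702950 to 15738313. It had 3, 4, 1110 and 521 counts in K562 DMSO, K562 periplocin, THP-1 DMSO and THP-1 periplocin, or 0.183, 0.242, 53.8 and 29.4 CPM. As with CD38, both K562 libraries were near the floor and the THP-1 DMSO library was the highest. The THP-1 ratio was 1.83-fold lower with periplocin (log2 ratio -0.87, interval -1.03 to -0.72), less than 2-fold. BST1 shares 51 exonic bp with FAM200B on the same strand. Per kb of exon, the ratio of CD38 to BST1 was 0.711 in THP-1 DMSO (interval 0.660 to 0.767) and 0.210 with periplocin (interval 0.180 to 0.245).

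In K562 neither gene reached 10 counts. The log2 ratio of CD38 there was 0.57 with an interval of -1.51 to 2.84, and that of BST1 was 0.40 with an interval of -2.16 to 3.17. Such counts cannot show whether either gene differed with periplocin in K562.

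**Figure D1:**
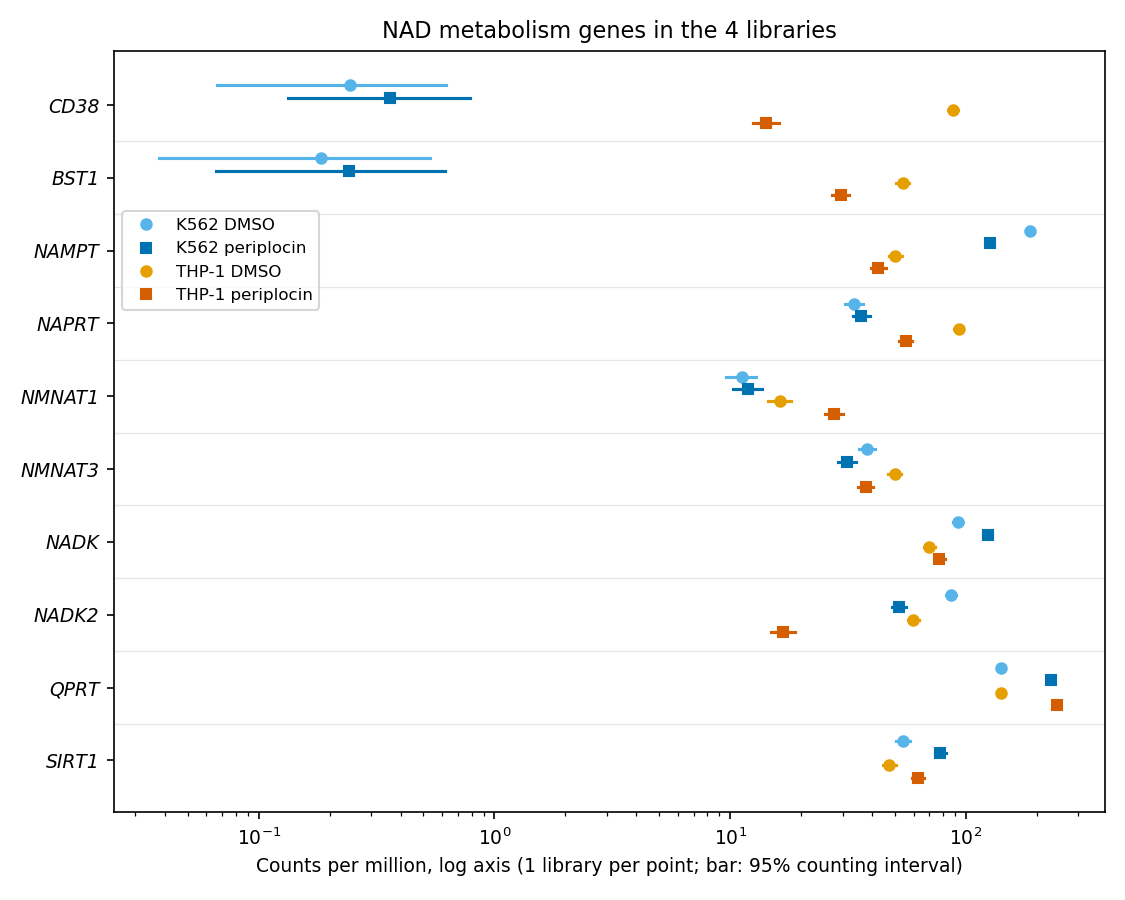
Level of each of the 10 genes in the 4 libraries, in CPM on a log axis, with circles for DMSO, squares for periplocin and bars for the 95% Poisson counting interval. CD38 and BST1 sit below 0.4 CPM in both K562 libraries and between 14.2 and 88.1 CPM in THP-1, while the other 8 genes lie between 11.2 and 242 CPM in every library.

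NAMPT (ENSG00000105835; chromosome 7, 106248285 to 106286326, minus strand) makes nicotinamide mononucleotide, the limiting step of salvage from nicotinamide. Its levels were 186 and 126 CPM in K562 DMSO and periplocin and 50.1 and 42.5 CPM in THP-1. The periplocin library was the lower of the pair in both lines. The log2 ratios were -0.56 in K562 (interval -0.64 to -0.48) and -0.24 in THP-1 (interval -0.38 to -0.10). NAMPT reads can be shared with copies, since 18.7% of its 100-base exon windows are also found in NAMPTP1 or AC007032.1, which makes its level uncertain.

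NAPRT (ENSG00000147813; chromosome 8), which starts the route from nicotinic acid, had 33.5 and 36.0 CPM in K562 DMSO and periplocin and 93.3 and 55.5 CPM in THP-1 DMSO and periplocin. The K562 libraries had overlapping counting intervals, and the THP-1 periplocin library was the lower of its pair. The log2 ratio was 0.10 in K562 (interval -0.07 to 0.27) and -0.75 in THP-1 (interval -0.86 to -0.64). Per kb of exon, NAMPT stood above NAPRT in K562, with a ratio of 1.89 in DMSO and 1.19 with periplocin. In THP-1 it stood below, with 0.183 in DMSO and 0.261 with periplocin. AC067930.5 and AC067930.6 lie on the opposite strand of NAPRT, and 20.3% of its 100-base exon windows are found in them.

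NMNAT1 (ENSG00000173614; chromosome 1, 9943428 to 9985501, plus strand) is the nuclear adenylyltransferase. It had 183 and 197 counts in K562 DMSO and periplocin, and 334 and 488 counts in THP-1. The K562 pair was alike within counting error, with a log2 ratio of 0.09 (interval -0.21 to 0.39), and the THP-1 periplocin library was the higher of its pair, with 0.77 (interval 0.56 to 0.97). NMNAT3 (ENSG00000163864; chromosome 3, 139560180 to 139678017, minus strand), the mitochondrial form, had 623 and 519 counts in K562 and 1029 and 665 in THP-1. Here the periplocin library was the lower in both lines, by log2 ratios of -0.28 and -0.41. The ratio of NMNAT1 to NMNAT3 per kb of exon in THP-1 was 0.914 with DMSO and 2.07 with periplocin, and in K562 it was 0.827 and 1.07. On the length of the longest coding transcript, NMNAT1 stayed below NMNAT3 in every library, at 0.200 and 0.451 in THP-1 and 0.181 and 0.233 in K562. NMNAT3 shares 3.42% of its 100-base windows with 43 other genes and NMNAT1 shares 5.19% with 1.

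QPRT (ENSG00000103485; chromosome 16, 29679008 to 29698699, plus strand) turns quinolinic acid into nicotinic acid mononucleotide, the point where the route from tryptophan joins that from nicotinic acid. Its levels were 141 and 229 CPM in the DMSO and periplocin libraries of K562, and 141 and 242 CPM in those of THP-1. Both periplocin libraries were above both DMSO libraries, and the DMSO libraries of the lines were level. The log2 ratio was 0.70 in K562 (interval 0.62 to 0.77) and 0.78 in THP-1 (interval 0.71 to 0.85), under 2-fold in both. AC009086.2, on the same strand, holds 12.4% of the 100-base windows of QPRT.

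NADK2 (ENSG00000152620; chromosome 5, 36192592 to 36242279, minus strand) is the mitochondrial NAD kinase, and its longest coding transcript encodes 442 amino acids. It had 1417 and 860 counts in K562 DMSO and periplocin, and 1235 and 297 in THP-1. The periplocin library was the lower in both lines. THP-1 periplocin was 3.57-fold lower than DMSO (interval 3.15 to 4.07, log2 ratio -1.84), which ranked 464th from the lowest, and in K562 the log2 ratio was -0.74 (interval -0.86 to -0.61). NADK (ENSG00000008130; chromosome 1, 1751232 to 1780457, minus strand), the cytosolic kinase, had 1513 and 2049 counts in K562 and 1442 and 1367 in THP-1. On the CPM scale its periplocin library was the higher in both lines, with log2 ratios of 0.42 (interval 0.33 to 0.52) and 0.14 (interval 0.03 to 0.25). Per kb of exon, NADK2 stood at 1.07 of NADK in K562 DMSO and 0.479 with periplocin, and at 0.977 in THP-1 DMSO and 0.248 with periplocin. On the length of the longest coding transcript this ratio was 1.53 in K562 DMSO and 0.684 with periplocin. In THP-1 it was 1.39 and 0.354 on that length. No 100-base exon window of NADK2 or NADK occurs in another annotated gene.

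SIRT1 (ENSG00000096717; chromosome 10, 67884669 to 67918390, plus strand) had 54.0 and 77.9 CPM in K562 DMSO and periplocin and 47.4 and 62.7 CPM in THP-1. Both periplocin libraries were above both DMSO libraries. The log2 ratios were 0.53 (interval 0.40 to 0.65) and 0.41 (interval 0.28 to 0.53).

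**Figure D2:**
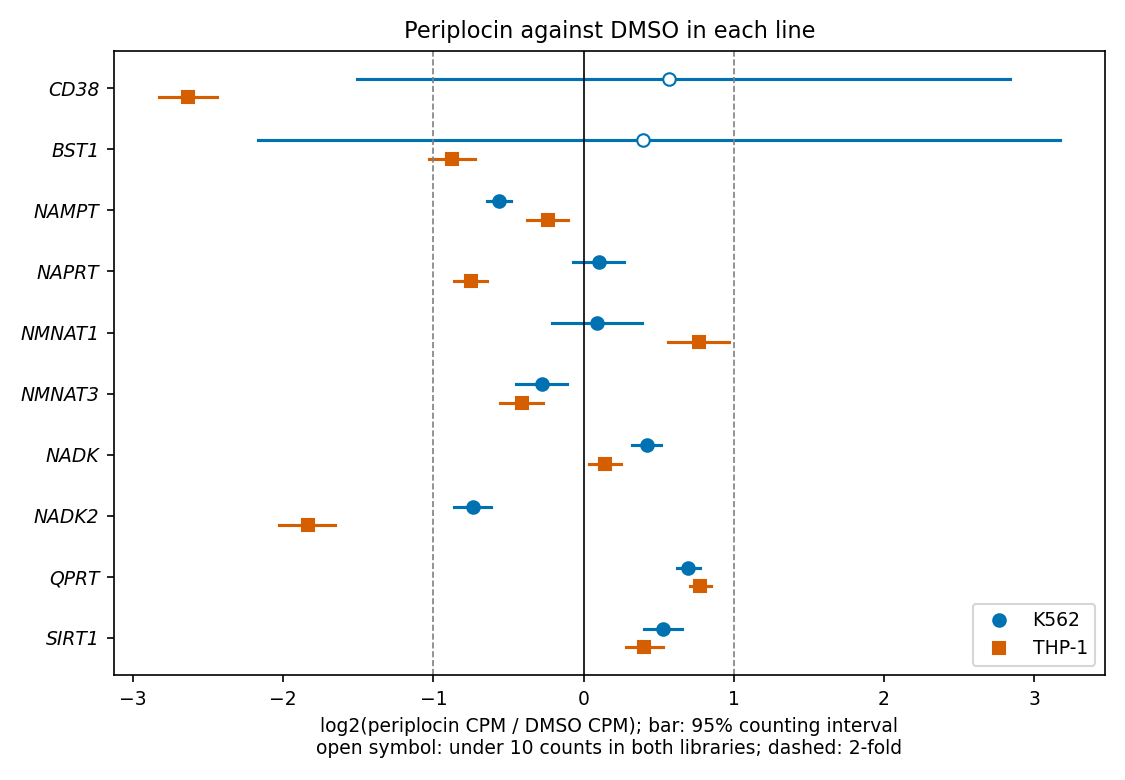
Log2 ratio of periplocin to DMSO CPM for each gene, with circles for K562, squares for THP-1 and bars for the 95% counting interval. Dashed lines mark 2-fold, and open symbols mark the pairs under 10 counts. In THP-1, CD38 at -2.63 and NADK2 at -1.84 lie beyond the lower line, and in K562 no gene with 10 counts does.

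Over the list, 0 of the 8 genes with at least 10 counts in K562 differed by 2-fold or more, where 23.4% of all 12736 such genes did (10.6% higher and 12.8% lower). In THP-1, 2 of 10 did, CD38 and NADK2, both lower, where 22.1% of 13367 genes did (9.49% higher and 12.6% lower). A share of 20% is near that background. The median log2 ratio of the 10 genes in THP-1 was -0.32, against -0.04 over all genes, and that of the 8 in K562 was 0.10, against -0.00165. QPRT, SIRT1 and NADK had intervals above 1 in both lines, and NADK2, NMNAT3 and NAMPT had intervals below 1 in both. No share over all genes was computed for intervals on the same side of 1, so this does not show that these genes are unusual. Of the 8 genes tested in both lines, 0 were past 2-fold in both, beside 7.56% of 11672 genes.

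The lines were also compared in their periplocin ratios. The log2 ratio of NADK2 in THP-1 minus that in K562 was -1.10 (interval -1.32 to -0.88), and that of NAPRT was -0.85 (interval -1.05 to -0.65). For NMNAT1 the difference was 0.68 (interval 0.32 to 1.03), for NAMPT 0.33 (interval 0.17 to 0.48) and for NADK -0.28 (interval -0.42 to -0.14). The counting intervals of NMNAT3, SIRT1 and QPRT included 0, with differences of -0.13, -0.12 and 0.08. For QPRT this depended on the scaling, since the interval left out 0 with DESeq2 size factors (0.14, interval 0.04 to 0.24) and with totals without mitochondrial genes (0.11, interval 0.01 to 0.21). The difference of CD38 was -3.20 with an interval of -5.03 to -1.36, and it rests on 4 and 6 counts in K562. For BST1 the difference was -1.27 with an interval of -3.44 to 0.89. The intervals of these differences for CD38 and BST1 use a normal approximation, which is poor at such counts. Each is narrower than the exact interval of the K562 ratio alone, and so is too narrow.

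Without periplocin, THP-1 and K562 differed most, of the 10 genes, in the surface enzymes. THP-1 DMSO was 361-fold above K562 DMSO for CD38 (interval 141 to 1325) and 294-fold above it for BST1 (interval 100.3 to 1427), from 4 and 3 counts in K562. With a prior count of 2 added, these became 241-fold and 177-fold. NAPRT was 2.79-fold higher in THP-1 (interval 2.53 to 3.07), and NAMPT was 3.71-fold lower (interval 3.46 to 3.99). With these, 4 of the 10 genes differed by 2-fold or more, 3 higher and 1 lower in THP-1, where 47.6% of 13974 genes did (23.3% higher and 24.3% lower). QPRT differed by a log2 ratio of 0.0025 (interval -0.08 to 0.08), and NMNAT1, NMNAT3, NADK, NADK2 and SIRT1 each differed by less than 2-fold. The DMSO libraries of this comparison also serve in the periplocin ratios.

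Levels of different genes were ordered per kb of the union of their exons. QPRT was highest in all 4 libraries, at 38.8 CPM per kb with DMSO and 62.9 with periplocin in K562, and at 38.8 and 66.6 in THP-1. In K562 DMSO it was followed by NAMPT, NADK2, NADK, SIRT1, NAPRT, NMNAT3, NMNAT1, BST1 and CD38. Neighbours whose counting intervals overlapped in that library were NADK2 with NADK, SIRT1 with NAPRT, NMNAT3 with NMNAT1, and BST1 with CD38. In K562 periplocin NADK was 2nd, SIRT1 3rd, NAMPT 4th and NADK2 6th. The K562 order also depended on the length used. On the length of the longest coding transcript, NAMPT was 3rd, NADK2 4th and SIRT1 6th in K562 periplocin. SIRT1 was 7th in K562 DMSO on that length, in place of 5th.

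In THP-1 DMSO the order after QPRT was NAPRT, BST1, CD38, NADK, NADK2, SIRT1, NAMPT, NMNAT3 and NMNAT1. On the union of exons, CD38 at 12.8 CPM per kb was not apart from NADK at 12.6, nor NADK from NADK2 at 12.3. In THP-1 periplocin CD38 was 10th, at 2.07 CPM per kb, and NADK2 was 8th, at 3.43. On the length of the longest coding transcript CD38 was 7th in THP-1 DMSO, at 15.5 CPM per kb, below NADK at 19.1 and NADK2 at 26.7. CD38 was again 10th in THP-1 periplocin. NMNAT3 was 5th in THP-1 DMSO and 4th in THP-1 periplocin on that length, in place of 9th in both.

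**Figure D3:**
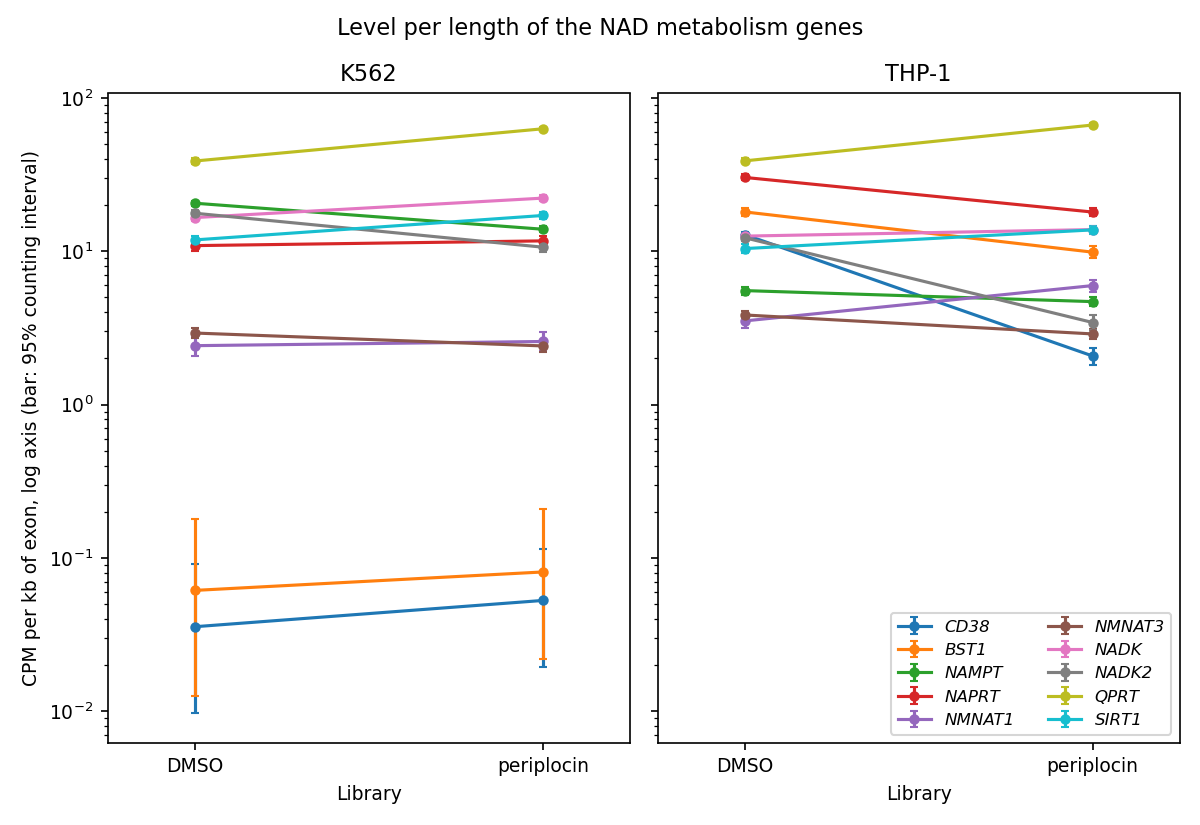
Level of the 10 genes in CPM per kb of exon on a log axis, K562 on the left and THP-1 on the right, with lines joining the DMSO and the periplocin library and bars for the 95% counting interval. QPRT is the top line in both panels, and in THP-1 CD38 goes from 12.8 to 2.07 and NADK2 from 12.3 to 3.43.

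CD38 was set beside the genes whose bodies lie within 500 kb of it. In THP-1 FAM200B had a log2 ratio of 0.81 (450 and 680 counts), FBXL5, a ubiquitin ligase subunit of iron sensing, had -0.24 (2957 and 2149), and TAPT1 had 0.78 (1209 and 1789). CC2D2A, a gene of the primary cilium, had -1.23 on 30 and 11 counts, with an interval of -2.37 to -0.19. BST1 and CC2D2A were the neighbours nearest to CD38 in ratio. Both lie before it, as do FBXL5 and FAM200B. In K562 the same genes had log2 ratios of -0.08 for FAM200B, 0.47 for FBXL5, 0.66 for TAPT1 and -0.74 for CC2D2A. C1QTNF7, FGFBP1, FGFBP2 and PROM1 had at most 7 counts in any library.

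**Figure D4:**
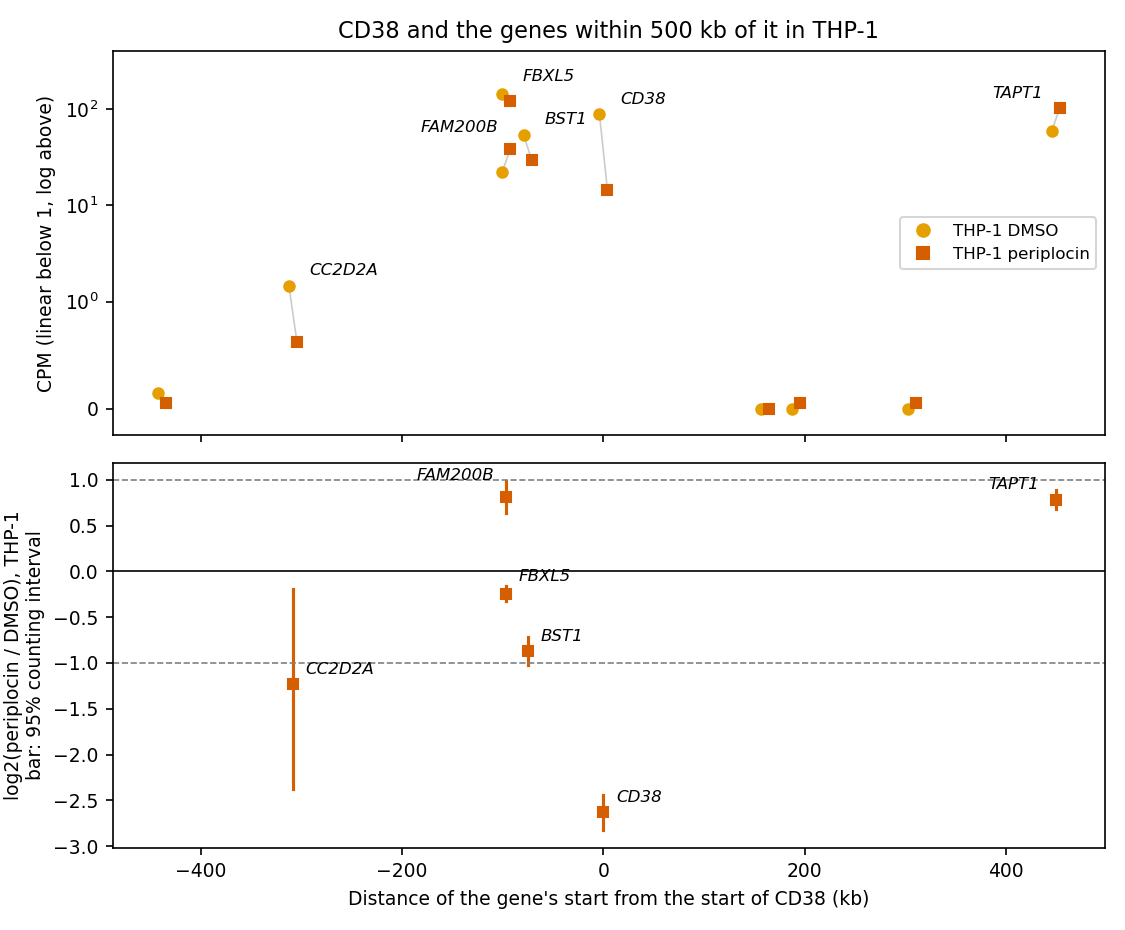
Genes within 500 kb of CD38 by the distance of their start from that of CD38 in kb. The upper panel gives CPM in the THP-1 libraries, circles for DMSO and squares for periplocin, on an axis that is linear below 1 and log above, and the lower panel gives the log2 ratio of periplocin to DMSO with its 95% counting interval and dashed lines at 2-fold. CD38 at -2.63 is the lowest, and FAM200B at 0.81 and TAPT1 at 0.78 lie above 0.

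The genes most like CD38 were found among 11987 genes with 5 CPM in a library, by the Euclidean distance between centred profiles of log2(CPM + 0.5) over the 4 libraries. They were B3GNT7 (distance 0.477), GSTM1 (0.515), MAP4K1 (0.534), SERPINB10 (0.542) and F13A1 (0.547). Their likeness to CD38 in these libraries follows from this choice. Each had at most 12 counts in the K562 libraries. B3GNT7, a glycosyltransferase, had 1656 and 272 counts in the DMSO and periplocin libraries of THP-1. F13A1, the catalytic subunit of coagulation factor XIII, had 1018 and 228, and MAP4K1, a hematopoietic kinase, had 1295 and 302. BST1 ranked 45th, at a distance of 1.27.

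The other 71 genes of the pathway were taken in 10 lists by role. Of the 52 with at least 10 counts in K562, 6 were higher and 10 lower by 2-fold or more, or 30.8%, beside 23.4% of all genes tested. In THP-1 6 were higher and 11 lower of 56, or 30.4%, beside 22.1%. The median log2 ratios were -0.09 and -0.14. Of the 49 tested in both lines, 4 (8.16%) were past 2-fold in both and in the same direction, SARM1 higher and PARP3, RYR1 and SIRT5 lower. Over all genes 882 of 11672 (7.56%) were past 2-fold in both lines, and 74.1% of these had the same direction.

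**Figure D5:**
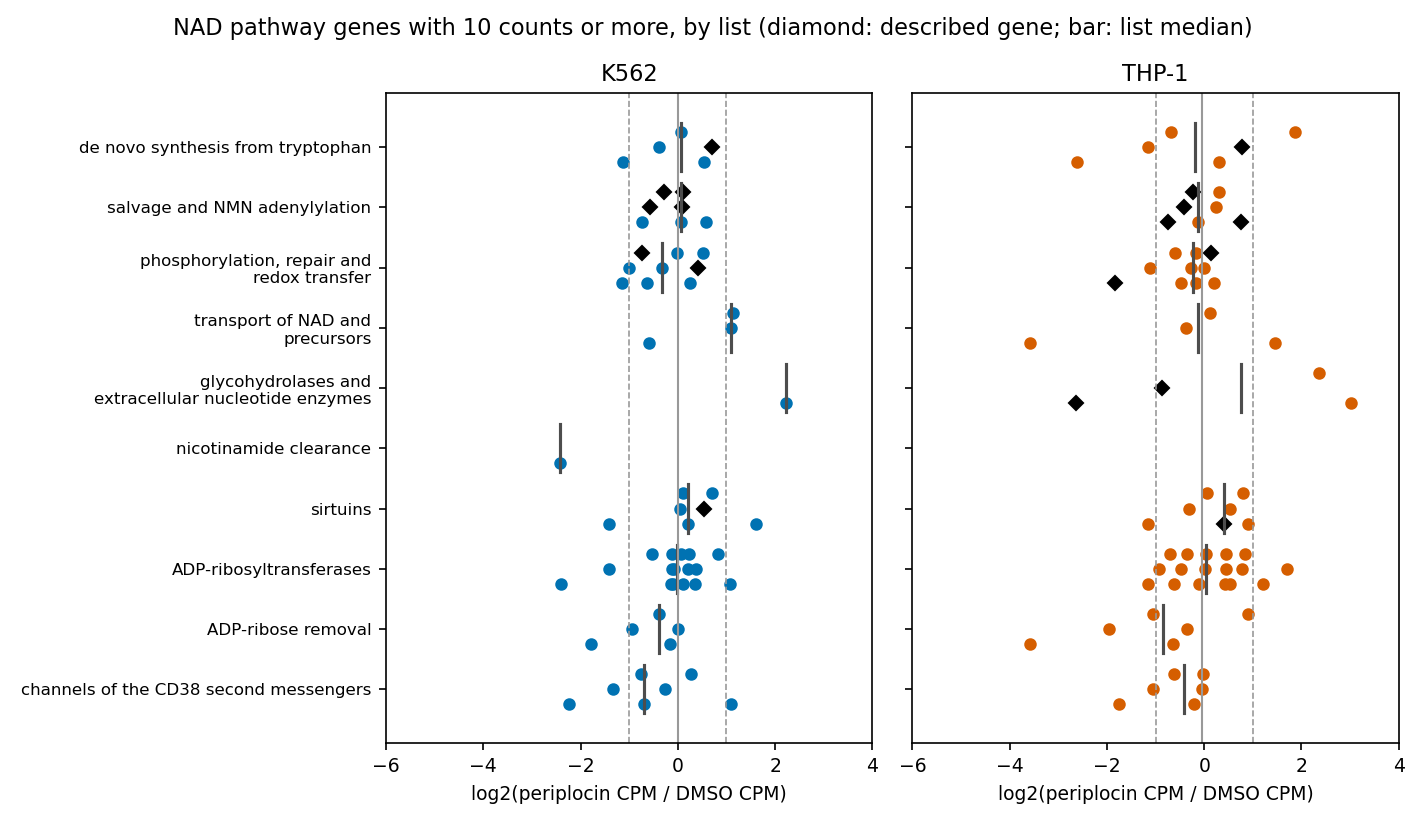
Log2 ratio of periplocin to DMSO for the NAD pathway genes with at least 10 counts, by list, K562 on the left and THP-1 on the right. Diamonds are the 10 described genes, circles the others, short bars the list medians, the solid line the median of all genes tested and dashed lines 2-fold. The list of channels of the CD38 messengers, which also holds JPT2 and LSM12, has a median of -0.69 in K562 and -0.42 in THP-1. Sirtuins have 0.20 and 0.41.

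Among enzymes that split NAD or handle its products outside the cell, SARM1 and NT5E were higher. SARM1, the NAD hydrolase of axon degeneration, had 53 and 252 counts in K562 and 101 and 447 in THP-1. Its periplocin library was the higher in both lines, 4.70-fold in K562 (interval 3.49 to 6.45) and 5.15-fold in THP-1 (interval 4.14 to 6.46). SARM1 shares 4421 of its 11137 exon bp with SLC46A1 on the opposite strand, which had 548 and 390 counts in K562 and, in THP-1, 393 and 189. NT5E, the ecto-nucleotidase CD73 that takes the phosphate from nicotinamide mononucleotide and AMP, had 110 and 771 counts in THP-1, 8.16-fold higher with periplocin (interval 6.67 to 10.1). In K562 it had 0 and 2 counts. ENPP1 and ENPP3, which cleave extracellular nucleotides, had at most 7 counts in any library.

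The route from tryptophan had 5 of its 10 genes tested in K562 and 6 in THP-1. TDO2, which opens the ring of tryptophan, had 161 and 75 counts in K562, 2.17-fold lower with periplocin. KMO, which hydroxylates kynurenine, had 104 and 326 counts in THP-1, 3.65-fold higher (interval 2.92 to 4.59). It shares 1691 exon bp with OPN3 on the opposite strand, which went the other way, with 293 and 114 counts. HAAO, which makes the precursor of quinolinic acid, had 165 and 23 counts in THP-1, 6.16-fold lower (log2 ratio -2.62, interval -3.32 to -1.99), and 0 in both K562 libraries. AFMID, which makes kynurenine, was 2.23-fold lower in THP-1. QPRT, which follows these enzymes, was higher in THP-1 beside a lower HAAO and a higher KMO.

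Of the 9 genes of salvage and adenylylation, 7 were tested in each line and 0 differed by 2-fold or more in either, beside 23.4% of all genes in K562 and 22.1% in THP-1. NADSYN1, which amidates the nicotinic acid form to NAD, had log2 ratios of 0.06 in K562 and 0.30 in THP-1. Among genes of phosphorylation, repair and redox transfer, NUDT12 and NUDT13, NADH pyrophosphatases, were 2.01-fold and 2.22-fold lower in K562 periplocin. HDDC3, an NADPH phosphatase, was 2.17-fold lower in THP-1, at 237 and 94 counts, and it overlaps UNC45A on the opposite strand. NADK2 was the lowest of this list in THP-1.

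Of the 7 transporter genes, 3 were tested in K562 and 4 in THP-1. SLC25A51, the mitochondrial NAD carrier, had 150 and 324 counts in K562, 2.14-fold higher with periplocin, and 246 and 229 in THP-1. SLC29A1, a nucleoside transporter, had 3142 and 6959 counts in K562, 2.19-fold higher, and 2285 and 1522 in THP-1. Its paralog SLC29A2 had 42 and 3 counts in THP-1, 12.0-fold lower (interval 3.84 to 60.7), and 370 and 247 in K562. SLC12A8 had 56 and 132 counts in THP-1, 2.74-fold higher, and at most 7 in K562. SLC25A52, SLC22A13 and SLC5A8 had at most 3 counts in any library. NNMT, which methylates nicotinamide and so removes it, had 85 and 16 counts in K562, 5.37-fold lower with periplocin, and 0 in both THP-1 libraries, and AOX1 had at most 4 counts.

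All 7 sirtuins were tested in both lines. SIRT5, a mitochondrial desuccinylase, had 587 and 223 counts in K562 and 147 and 57 in THP-1, 2.66-fold and 2.22-fold lower with periplocin. SIRT4, also mitochondrial, had 14 and 43 counts in K562, 3.04-fold higher (interval 1.63 to 6.01), and 14 and 21 in THP-1. SIRT2, the cytosolic deacetylase, had 989 and 1624 counts in K562 and 985 and 1579 in THP-1, with log2 ratios of 0.70 and 0.90. SIRT3, SIRT6 and SIRT7 each had ratios within 1.5-fold in both lines. The list median was 0.20 in K562 and 0.41 in THP-1, where SIRT1 was itself the median gene.

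The list of the ADP-ribosyltransferase family, many but not all of whose members attach ADP-ribose from NAD to proteins, held 17 genes. PARP3, of double-strand break repair, had 168 and 64 counts in K562 and 91 and 35 in THP-1, 2.65-fold and 2.23-fold lower with periplocin. PARP2 had 412 and 882 counts in K562, 2.12-fold higher, and 911 and 614 in THP-1. In THP-1 PARP9 was 2.33-fold higher (482 and 963 counts) and TIPARP, a target gene of the aryl hydrocarbon receptor, was 3.27-fold higher (746 and 2099). Both lines gave list medians near those of all genes, at -0.00832 in K562 and 0.03 in THP-1. Single genes lay away from these medians in both directions. Besides those above, PARP11 had 63 and 12 counts in K562, 5.31-fold lower. PARP1 had 14400 and 6461 counts in THP-1, 1.92-fold lower (interval 1.86 to 1.97), and a log2 ratio of -0.07 in K562.

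Of the 6 genes that remove ADP-ribose, all tested in THP-1, 3 were lower by 2-fold or more there, beside 12.6% of all genes, and in K562 1 of 5 was, beside 12.8%. In THP-1 MACROD1 had 70 and 5 counts, MACROD2 had 27 and 6, and ADPRS, which cleaves serine-linked ADP-ribose, had 325 and 134. ADPRH was 3.47-fold lower in K562, at 144 and 42 counts, and had 363 and 586 counts in THP-1. PARG and OARD1 differed by less than 2-fold in both lines.

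Cyclic ADP-ribose and NAADP, messengers that CD38 can make, act on ryanodine receptors and two-pore channels. RYR1 had 131 and 28 counts in K562 and 145 and 37 in THP-1, 4.73-fold and 3.37-fold lower with periplocin. RYR2 had more counts than RYR1 in K562, 1375 and 824, and was 1.69-fold lower there (interval 1.55 to 1.84). In THP-1 RYR2 had 0 and 3 counts. TPCN2 was 2.07-fold lower in THP-1, at 553 and 230 counts. TPCN1 was 2.12-fold higher in K562, at 767 and 1644 counts, and level in THP-1, at 5281 and 4457. The list also holds JPT2 and LSM12, which are not channels. All 6 genes of this list tested in THP-1 had ratios below 1, with a median of -0.42, beside -0.04 over all genes. The THP-1 counting intervals of TPCN1 and TRPM2 included a ratio of 1. In K562 5 of 7 had ratios below 1. Over all genes 52.4% had a ratio below 1 in THP-1 and 50.1% in K562.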

How the data were processed

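The authors deposited 1 table of expected counts per gene for the 4 poly-A libraries, neither normalized nor pooled. The submitters' processing notes name HISAT2, StringTie 1.3.1 and build hg38, and the counting program, annotation and strand setting are not given in the sources used here. Expected counts were rounded to whole numbers and scaled to CPM on library totals. With 1 library per condition no test was made. Ratios carry exact conditional binomial intervals at 95%, levels carry Poisson intervals, and differences of log2 ratios carry a counting standard error. A gene was read as tested with at least 10 counts in 1 library of the pair, and as past the rule at a ratio of 2, with counts under 3 set to 3. Symbols came with 20310 of 20348 identifiers, and 20118 were found in GENCODE release 29, which gave positions, exon lengths and overlaps. The table held 0 columns that were not used.

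The 10 genes, the pathway lists and the marker lists were chosen with earlier results of these data known. Named genes were the 10, pathway genes past 2-fold with at least 5 CPM in a library of the pair, every gene of a list of 7 or fewer, genes within 500 kb of CD38 and the 5 most like it. The pathway genes NADSYN1, RYR2, PARP1, PARP11, JPT2, LSM12, TRPM2, NNT and TNKS fall outside this rule and were named after their values were seen. Alternatives were TMM factors (edgeR 4.0.16), size factors (DESeq2 1.42.0, R 4.3.3), totals without mitochondrial genes, unrounded counts, a prior count of 2, other filters and other ratios. Python 3.11.15 with numpy 2.4.6, pandas 2.3.3, scipy 1.17.1 and matplotlib 3.10.9 was used, and the steps were first tested on simulated data.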

Additional observations from a re-analysis of the deposited data

Results flagged for a closer look

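Of 57 NAD pathway genes with at least 10 counts in both lines, 17 had periplocin ratios on opposite sides of 1 in K562 and THP-1, NAPRT among them. In 8 of these the 95% counting interval left out a ratio of 1 in both lines, and those 8, which hold none of the 10 described genes, are given here. No share over all genes is given for either count, so the counts do not show whether NAD pathway genes are unusual in this. The difference was not tested for any of the 8, since each condition has a single library. The log2 ratio in THP-1 minus that in K562 was 2.70 for ADPRH, the arginine-linked ADP-ribose hydrolase (-1.79 in K562 and 0.91 in THP-1), and 2.24 for TIPARP (-0.53 and 1.71). It was -1.69 for AFMID (0.53 and -1.15), -1.50 for SLC29A1 (1.13 and -0.37) and -1.43 for PARP2 (1.08 and -0.35). Smaller differences were -0.70 for NNT, the mitochondrial transhydrogenase (0.52 and -0.18), 0.53 for TNKS, a tankyrase (-0.11 and 0.42), and -0.47 for LSM12, an NAADP-binding protein (0.26 and -0.21).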

How the results depend on the processing

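With 1 library per condition no spread between cultures could be measured, and low counts of CD38 and BST1 in K562 limit every value that uses them. No paired analysis was possible because the labels carry no replicate numbers and each condition has 1 library, so that none could be left out either. Of 180 values of the 10 genes under other scalings, rounding or a prior count, 172 stayed within their counting interval. A change of sign was seen in 1, QPRT between the DMSO libraries, which went from 0.0025 to -0.0032 in totals without mitochondrial genes. The 8 that moved were all of THP-1 DMSO against K562 DMSO, where TMM shifted the median of all genes from -0.08 to 0.04. The log2 ratio of NAMPT there became -1.77 with either TMM or size factors, that of NADK -0.28, that of NADK2 -0.41 and that of QPRT 0.12 and 0.13. Genes past the rule numbered 2984 in K562 and 2958 in THP-1. They numbered 1863 and 1726 with at least 5 CPM, 5573 and 5539 at a ratio of 1.5, 818 and 775 at a ratio of 4, and 1645 and 1533 with the whole interval past 2-fold. Of the 10 genes, a ratio of 1.5 took 2 of the 8 tested in K562, beside 5573 of 12736 over all genes. In THP-1 it took 6 of 10, beside 5539 of 13367. A ratio of 4 took 1 of the 10 in THP-1, beside 775 of 13367. Between the lines, a ratio of 4 took 3858 genes in place of 6658, and 2 of the 10 in place of 4. CD38 was 7th in THP-1 DMSO by the longest coding transcript and 4th by the union of exons. NMNAT3 was 5th and 9th in that library by the same lengths. The pathway lists, here with the 10 genes included, held 27 of 60 tested genes past a ratio of 1.5 in K562, beside 5573 of 12736 over all genes. In THP-1 they held 35 of 66, beside 5539 of 13367. At a ratio of 2 they held 16 and 19, or 26.7% and 28.8%, beside 23.4% and 22.1% of all genes.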
